A study of Mus musculus with 4 samples.

Results

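The mitochondrial ribosomal protein genes were read from 4 two-colour arrays that set mouse microvascular smooth muscle cells carrying a vector named RapCA against the same kind of cells carrying an empty vector. They were taken as the probes, other than control spots, whose transcript carries a mouse symbol beginning with Mrpl or Mrps and a digit. This gave 115 of 41174 probes and 78 of 18217 genes with a symbol. Of these, 114 probes covering all 78 genes passed the filter on dim spots, and the 1 probe left out was 1 of 2 for Mrpl41. The products of 51 genes sit in the large subunit and those of 26 in the small subunit. The remaining gene, Mrps36, keeps its name although its product is now known as a subunit of the oxoglutarate dehydrogenase complex.

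All cells were labelled as Rap1a knockout, from male C57BL6 mice. Rap1a encodes a small GTPase of the Ras family. They received the RapCA or the empty shuttle vector by virus in medium with no serum overnight, and were kept for another 48 h at 0.5% serum, having been grown at 10%. RapCA RNA carried Cy3 and empty-vector RNA carried Cy5 on every array, each array held 1 pair of biological replicates, and no dyes were swapped, so a dye effect and the effect of the vector cannot be told apart. What RapCA stands for, how the knockout was made and which virus was used are not given in the sources used here.

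Each value below is a log2 ratio, after loess normalization, of signal in the channel labelled RapCA to that in the vector channel, so a negative value means less in the channel labelled RapCA. A gene was read by its probe with the strongest signal and was called lower or higher when limma's adjusted p, taken over all 23497 probes tested, was under 0.05. The ± values are SDs over the 4 arrays, whose number limits the precision. The Rap1a probe was itself lower in the channel labelled RapCA, at -1.07 ± 0.44 (n = 4, limma adjusted p = 0.00204), with ratios of -0.46, -1.02, -1.31 and -1.47 on replicates 1 to 4. It was well above background in both channels of all 4 arrays, with mean log2 signals of 11.7 and 12.7 in the RapCA and vector channels of cells labelled as knockout. Whether the signal goes against the knockout label is not known here, because the probe may or may not lie in the deleted part of the gene. Whether the lower ratio goes against the RapCA label is not known either, because what RapCA stands for is not given. Every direction here rests on the labelled dyes, and would turn if the dyes had been recorded the other way round. Of 9 smooth muscle markers, 8 cleared the background in both channels of every array, and Des cleared it on none. On all 4 arrays, the channels labelled RapCA and vector cleared it for 3 and 2 of 6 endothelial markers, 0 and 1 of 4 epithelial, 2 and 1 of 4 leukocyte, 1 and 2 of 4 pericyte and 4 and 4 of 5 fibroblast markers. Among these, Kdr, Vwf, Cd3e and Cspg4 cleared it in both channels, while Cdh5, Pecam1, Epcam, Cdh1 and Ptprc cleared it on no array. Several markers differed between the channels. Of the endothelial markers, Kdr at -0.75 and Vwf at -2.03 were lower and Tek at 1.16 was higher. Of the smooth muscle markers, Tagln at 2.13, Myl9, Mylk, Lmod1 and Acta2 were higher. Cnn1 at 0.07, Smtn at 0.08 and Myh11 at 0.13 were not called. Of the fibroblast markers, Dcn at 3.88, Dpt and Col1a1 were higher and Pdgfra at 0.17 was not called. The pericyte marker Cspg4 was higher at 0.88 and the pericyte marker Kcnj8 lower at -0.40. Epithelial Krt8 at -1.04 was lower, leukocyte Lyz2 at 0.52 was higher, and Cd3e at 0.11 was not called. The part of these markers in the results below was not tested. In bulk RNA, fewer cells of a type and less RNA per cell cannot be told apart. Replicate 1 stood apart from the others. Its median net signal in Cy5 was 37, against 75.5 to 83.5 on the rest, with Cy3 between 35.5 and 43 on all 4. Over all probes its ratios correlated with theirs at r = 0.69 to 0.78, and the other 3 arrays correlated with each other at 0.93 to 0.98.

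Mitochondrial ribosomes translate the few proteins encoded by mitochondrial DNA, all of them core subunits of the respiratory chain and the ATP synthase. Their RNAs are made inside the mitochondrion, while their proteins are encoded in the nucleus, made in the cytosol and imported. Some of these proteins descend from bacterial ribosomal proteins and others were added in the mitochondrial lineage. Many genes for mitochondrial proteins have promoters without a TATA box that are known to be bound by NRF1, by the ETS factor GABP and by YY1. Loss of several mitochondrial ribosomal proteins in human families causes disease of heart, muscle or brain.

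The member genes lie on 17 chromosomes, and their promoters were read for letters they share. RefSeq promoter windows on GRCm38.p6, each 300 bases around the start of the gene, matched 69 of the 78 genes. The 3 genes with the largest falls are shown first, then Mrps27 and Mrpl44, which were also called lower and hold the other motifs searched, and last Mrps6, the gene with the largest rise. Each is written 5′ to 3′ along the gene's strand, and capitals mark matches to the letters CCGGAAG (ETS type), GCGCANGCG (NRF1 type) or AAGATGGCG (YY1 type) on either strand.
Mrpl18, chr17:12916042-12916341, minus strand: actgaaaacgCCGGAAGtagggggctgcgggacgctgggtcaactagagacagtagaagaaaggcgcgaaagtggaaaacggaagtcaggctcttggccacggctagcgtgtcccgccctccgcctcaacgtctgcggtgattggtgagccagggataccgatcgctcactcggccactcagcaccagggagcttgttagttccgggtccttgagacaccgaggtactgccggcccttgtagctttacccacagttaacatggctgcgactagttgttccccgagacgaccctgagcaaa
Mrps22, chr9:98601630-98601929, minus strand: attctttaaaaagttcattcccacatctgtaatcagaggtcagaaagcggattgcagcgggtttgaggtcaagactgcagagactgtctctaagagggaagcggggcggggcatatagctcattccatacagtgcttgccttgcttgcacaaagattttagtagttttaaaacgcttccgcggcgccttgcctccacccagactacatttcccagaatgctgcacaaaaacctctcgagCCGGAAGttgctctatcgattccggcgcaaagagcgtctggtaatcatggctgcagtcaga
Mrps18c, chr5:100798509-100798808, plus strand: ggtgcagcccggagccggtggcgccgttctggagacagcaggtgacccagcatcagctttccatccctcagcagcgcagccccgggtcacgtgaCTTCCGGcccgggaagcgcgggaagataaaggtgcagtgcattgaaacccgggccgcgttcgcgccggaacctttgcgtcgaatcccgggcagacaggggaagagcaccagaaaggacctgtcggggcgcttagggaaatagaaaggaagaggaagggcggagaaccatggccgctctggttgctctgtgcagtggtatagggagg
Mrps27, chr13:99344536-99344835, plus strand: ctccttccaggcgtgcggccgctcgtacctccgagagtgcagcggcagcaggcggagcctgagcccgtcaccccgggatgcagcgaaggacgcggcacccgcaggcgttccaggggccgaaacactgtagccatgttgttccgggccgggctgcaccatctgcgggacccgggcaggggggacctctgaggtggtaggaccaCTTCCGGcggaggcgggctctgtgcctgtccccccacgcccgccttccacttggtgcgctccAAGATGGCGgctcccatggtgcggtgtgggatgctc
Mrpl44, chr1:79775768-79776067, plus strand: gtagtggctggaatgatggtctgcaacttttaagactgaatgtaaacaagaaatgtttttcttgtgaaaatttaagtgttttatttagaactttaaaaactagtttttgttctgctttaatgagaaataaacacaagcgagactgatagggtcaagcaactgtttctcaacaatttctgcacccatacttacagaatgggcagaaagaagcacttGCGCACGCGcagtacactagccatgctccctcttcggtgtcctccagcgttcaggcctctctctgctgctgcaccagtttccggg
Mrps6, chr16:92058086-92058385, plus strand: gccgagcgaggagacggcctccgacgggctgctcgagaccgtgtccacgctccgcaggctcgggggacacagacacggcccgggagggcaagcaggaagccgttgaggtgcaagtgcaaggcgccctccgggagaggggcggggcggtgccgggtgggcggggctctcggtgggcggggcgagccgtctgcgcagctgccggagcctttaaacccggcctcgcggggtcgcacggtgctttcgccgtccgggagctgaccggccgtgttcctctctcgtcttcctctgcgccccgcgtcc

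The Mrpl18, Mrps22 and Mrps18c windows each held 1 ETS-type match. Mrps27 held an ETS-type and a YY1-type match, Mrpl44 an NRF1-type match, and Mrps6 none of these letters. Among the 69 genes with a window, 37.7% held the ETS-type letters (26 genes), against 19.4% of the 9924 tested genes with a window and 9.93% of all 27025 genes in the promoter table. The NRF1-type letters were in 23.2% of member genes (16 genes), against 14.9% of tested genes and 7.03% of all genes. The YY1-type letters were in 11.6% (8 genes), against 3.47% and 1.64%. Counted by window, the ETS, NRF1 and YY1 types were in 8.86%, 6.25% and 1.40% of all 32851 windows. The letters TATAAA went the other way, with 7.25% of member genes against 9.67% of tested genes and 15.7% of all. At least 1 of the ETS, NRF1 and YY1 types was present in 60.9% of member genes, 33.0% of tested genes and 16.5% of all genes. The members' windows also had a median GC content of 58.7%, against 52.7% over all windows, and the part of base composition in these shares was not tested.

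**Figure D1:**
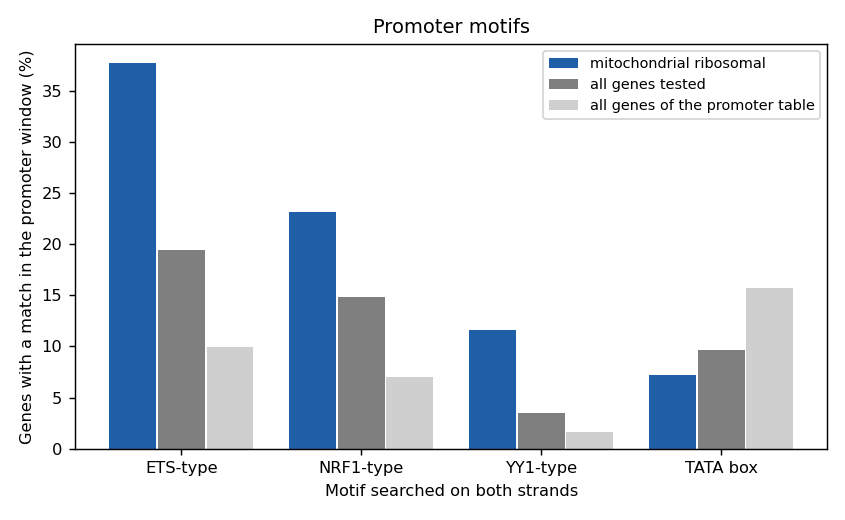
Share of genes whose promoter window holds each motif (vertical axis, percent; bars start at 0) for the mitochondrial ribosomal protein genes, all genes tested on the arrays and all genes of the RefSeq promoter table. ETS-type letters were in 37.7% of the mitochondrial ribosomal genes and 19.4% of tested genes, and TATA box letters in 7.25% and 9.67%.

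Motif matches were spread over called and uncalled members. ETS-type letters were in 9 of the 26 genes called lower that had a window, in 16 of the 38 not called and in 1 of the 5 called higher. Of the genes called lower, 16 of 26 held at least 1 of the 3 types, and of those not called 25 of 38 did. The 1 gene called higher with a match was Mrps21, which held both ETS-type and NRF1-type letters. A match is only a run of letters in the window, and binding was not measured.

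The mitochondrial ribosomal protein genes were lower more often than higher in the channel labelled RapCA, by small amounts. Of the 78 genes, 27 were called lower, 5 were called higher and 46 were not called. Over all 12388 genes tested, 24.9% were called lower and 28.9% higher, while 34.6% of the mitochondrial ribosomal genes were lower and 6.41% higher. With loess none of the 78 was called with a change of 2-fold or more. Of all tested genes, 926 were called at least 2-fold lower and 1135 at least 2-fold higher. With median centring 5 of the 78 and 1287 of the 12388 genes tested were called at least 2-fold lower. The median ratio of the 78 genes was -0.18, with an interquartile range of -0.40 to 0.03, and the median of all tested genes was 0.02. With median centring in place of loess, 35 genes were called lower and 0 higher, of which 20 were among the 27, and the median of the 78 was -0.54 against -0.17 for all genes.

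Relative to the median of all genes, the 78 genes were thus displaced by -0.20 with loess and by -0.37 with median centring. Under that centring 20.0% of all genes were called lower and 12.4% higher. The mean ratio lay below 0 for 55 of the 78 genes with loess and for 72 with centring. Over all 12388 genes tested it lay below 0 for 6028 with loess and for 7709 with centring. Of the 78 genes, 37 had ratios below 0 on all 4 arrays, a pattern found in 29.4% of all tested genes. Another 7 were above 0 on all 4, a pattern found in 33.4%. The median absolute ratio was 0.239 against 0.411 over all genes with loess, and 0.537 against 0.455 with centring, so its order turned with the scaling.

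**Figure D2:**
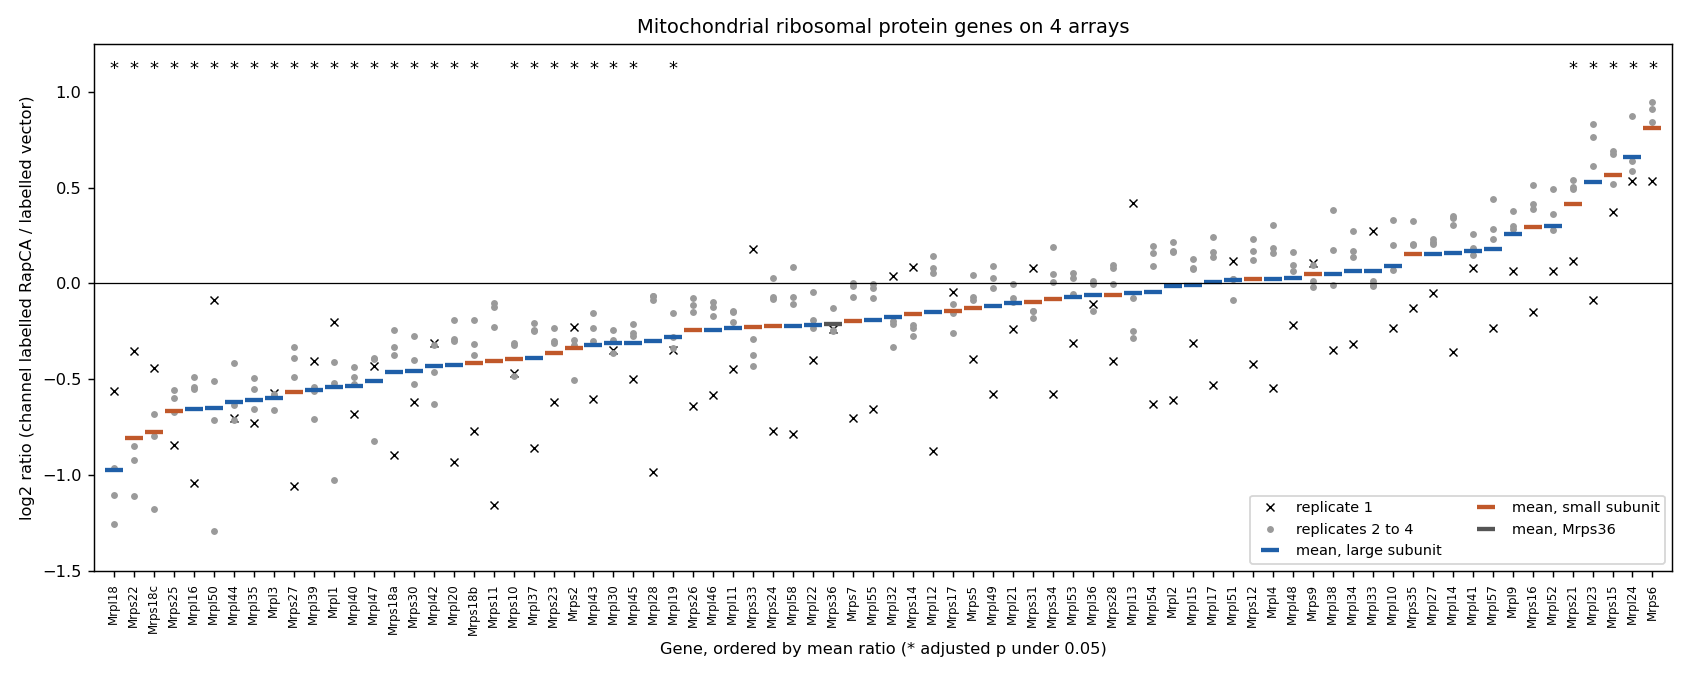
Log2 ratio on each array (crosses for replicate 1, dots for replicates 2 to 4) and mean (bars, coloured by subunit) of the 78 genes, ordered by mean, with an asterisk where limma's adjusted p was under 0.05. The means run from -0.97 for Mrpl18 to 0.81 for Mrps6, and the crosses often stand apart from the dots. Of the 78 means, 55 lie below 0, against 6028 of all 12388 genes tested.

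Replicate 1 carried the largest displacement. The median ratio of the 78 genes was -0.40 on replicate 1, -0.09 on replicate 2, -0.12 on replicate 3 and -0.08 on replicate 4, while the median of all genes lay between 0.02 and 0.05 on each array. The number of the 78 genes below 0 was 63 on replicate 1 and 50, 48 and 46 on replicates 2, 3 and 4. Over all 12388 genes tested, 5867, 5992, 6029 and 5930 were below 0 on replicates 1 to 4. All arrays were therefore displaced in the same direction, replicate 1 the most. With median centring the medians of the 78 genes were -0.19, -0.59, -0.79 and -0.56 on replicates 1 to 4, against 0.36, -0.30, -0.44 and -0.30 for all genes. All 4 thus stayed below those of all genes. Replicate 1 was then the nearest to 0, yet its median still lay the farthest below that of all genes. The part of the weak Cy5 signal of replicate 1 was not tested. Over the 78 genes, replicate 1 correlated with the other arrays at r = 0.34 to 0.49 and those with each other at 0.93 to 0.98, as a description across genes that share arrays. Without replicate 1 the median was -0.09, with 31 genes (39.7%) called lower and 14 (17.9%) higher, against 34.0% and 37.1% of all genes. Without replicate 2, 12 (15.4%) were called lower and 3 (3.85%) higher, against 17.5% and 21.4%, and without replicate 3 the counts were the same, against 17.1% and 21.6%. Without replicate 4, 17 (21.8%) were lower and 3 higher, against 19.8% and 24.0%. The share called lower was thus below that of all genes without replicate 2 or 3 and close to it without replicate 4, while the share called higher was below that of all genes each time.

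**Figure D3:**
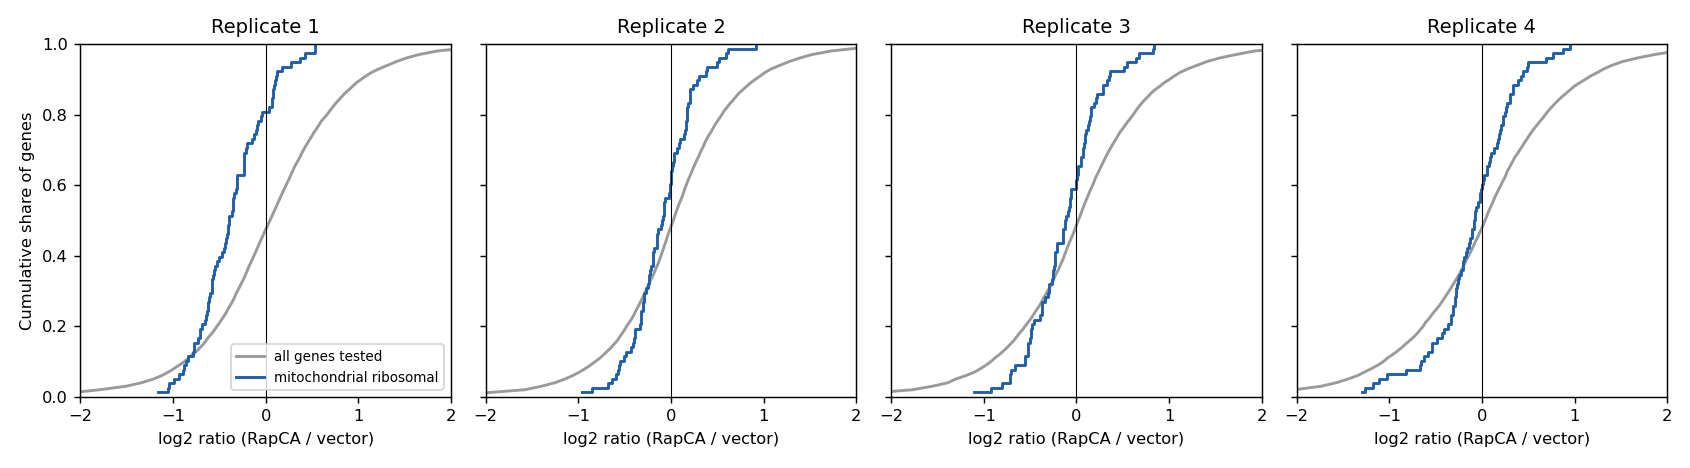
Cumulative share of genes (vertical axis) below each log2 ratio (horizontal axis) on each array, for the 78 mitochondrial ribosomal protein genes (blue) and all genes tested (grey). The blue curve crosses the middle of the scale at -0.40 on replicate 1 and at -0.12 to -0.08 on the other arrays, and it is steeper than the grey curve on all 4.

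The probes of these genes gave strong signals. When all tested genes were put into 4 bands of equal size by mean spot signal, 53 of the 78 genes lay in the top band, 25 in the band below it and none in the lower bands. In the top band the members' median ratio was -0.14 against 0.06 for all genes there, and in the next band -0.28 against 0.03. With median centring the corresponding medians were -0.56 against -0.37 and -0.45 against -0.18. The members' median was thus below that of all genes in both bands under both scalings. No test was made of this difference.

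**Figure D4:**
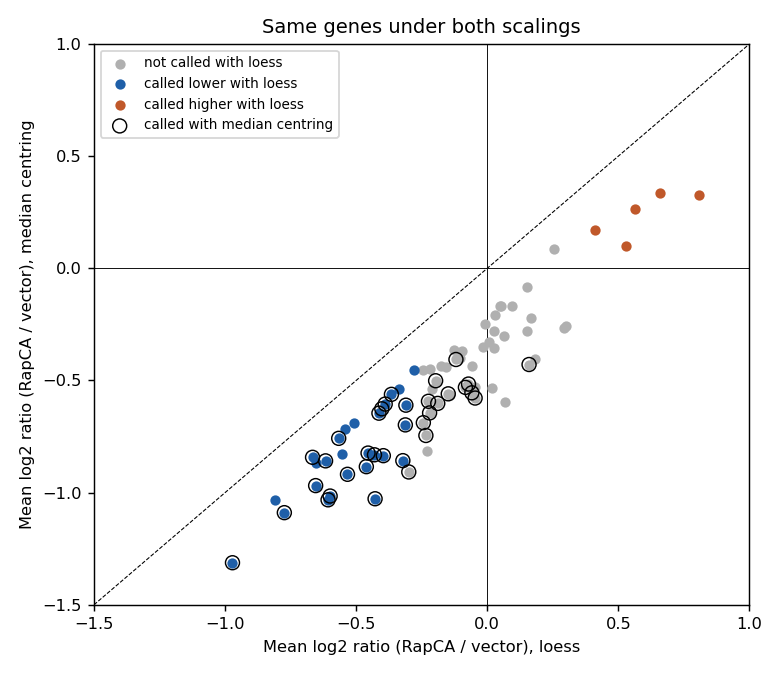
Mean log2 ratio of each of the 78 genes after loess (horizontal axis) and after median centring (vertical axis), coloured by the call with loess, with rings around genes called with median centring. All points lie below the dashed line of equal values, and the 5 genes called higher with loess lie between 0.10 and 0.34 with centring, none with a ring.

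Genes of both subunits lay below all genes on balance. Of 51 large subunit genes, 19 (37.3%) were called lower and 2 (3.92%) higher, with a median ratio of -0.17. Of 26 small subunit genes, 8 (30.8%) were lower and 3 (11.5%) higher, with a median of -0.18. Over all genes tested, 24.9% were lower and 28.9% higher. Centring on the median gave -0.53 and -0.55. The medians of the subunits thus lay close together under both scalings.

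The genes were also divided, by hand, by the origin of their proteins. Mrps18a and Mrps18b, both called lower, were counted as specific to mitochondria, while their paralogue Mrps18c was counted as having a bacterial counterpart. Of 46 genes whose proteins have a bacterial counterpart, 12 (26.1%) were called lower and 5 higher, with a median of -0.13. Of 31 genes whose proteins are specific to mitochondria, 15 (48.4%) were lower and 0 higher, with a median of -0.24. For all genes tested these shares were 24.9% lower and 28.9% higher, with a median of 0.02. With loess the share called lower in the bacterial class was thus near that of all genes. Under median centring the class medians were -0.45 and -0.61, with 17 (37.0%) and 18 (58.1%) genes lower, against 20.0% of all genes. All 5 genes called higher encode proteins of the bacterial core. Within the small subunit, 3 of 16 bacterial-type genes (18.75%) were lower and 3 higher, against 5 lower (50.0%) and 0 higher of 10 mitochondria-specific ones. The difference between these classes was not tested.

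Mrpl18 had the largest fall. Its protein is the counterpart of the bacterial protein that holds the 5S ribosomal RNA, an RNA that the mammalian mitochondrial ribosome lacks, and its gene lies on chromosome 17. Its ratios were -0.56, -0.96, -1.11 and -1.26 on replicates 1 to 4, a mean of -0.97 ± 0.30 (n = 4, limma adjusted p = 0.00105), or 1.96-fold lower. It was low on every array and least so on replicate 1. Its other 2 probes gave -0.54 ± 0.28 and -0.53 ± 0.20, both also called lower. It was lower under all 19 alternative settings, as were Mrpl16, Mrpl3, Mrpl40 and Mrps27.

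Mrps22 and Mrps18c followed. Mrps22, a mitochondria-specific small subunit protein whose loss in human families causes heart muscle disease, had ratios of -0.35, -0.85, -0.92 and -1.11, a mean of -0.81 ± 0.32 (n = 4, limma adjusted p = 0.00288). Mrps18c, the counterpart of bacterial S18, had -0.44, -0.68, -0.80 and -1.18, a mean of -0.77 ± 0.31 (n = 4, limma adjusted p = 0.00305). Both were low on all arrays, and for both replicate 1 was the nearest to 0 and replicate 4 the farthest. A second Mrps18c probe, at -0.32 ± 0.26, was not called. With median centring Mrps22 missed the threshold (limma adjusted p = 0.0641).

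The paralogues of Mrps18c fell as well. Mammals have 3 such genes, and their proteins sit in different places, that of Mrps18a in the large subunit and those of Mrps18b and Mrps18c in the small one. Mrps18a had ratios of -0.90, -0.33, -0.37 and -0.24, a mean of -0.46 ± 0.30 (n = 4, limma adjusted p = 0.0243). Mrps18b had -0.77, -0.19, -0.37 and -0.31, a mean of -0.41 ± 0.25 (n = 4, limma adjusted p = 0.0273). For both of these replicate 1 was the lowest array, the reverse of Mrps18c. Neither was called without replicate 2 or without replicate 3, and Mrps18b was not called without replicate 4 either.

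Mrpl3 and Mrpl16 encode proteins that in bacterial ribosomes reach towards the peptidyl transferase centre, where peptide bonds form. Mrpl3 was the steadiest of the large falls, with -0.57, -0.58, -0.66 and -0.59 and a mean of -0.60 ± 0.04 (n = 4, limma adjusted p = 0.00179). Its other 2 probes were at -0.24 ± 0.06 and -0.21 ± 0.12 and were not called, so the size for this gene depends on the probe. Mrpl16, with 1 probe, had -1.04 on replicate 1 and -0.49 to -0.55 on the others, a mean of -0.65 ± 0.26 (n = 4, limma adjusted p = 0.00435). Every array was below 0 for both genes.

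Mrpl40 gave like values on all its probes. It encodes a mitochondria-specific large subunit protein. Its 3 probes gave -0.53 ± 0.11, -0.53 ± 0.12 and -0.59 ± 0.16, all called lower. On its strongest probe the ratios were -0.68, -0.44, -0.53 and -0.49 (n = 4, limma adjusted p = 0.0038). Mrpl42 and Mrps2 likewise had both of their probes called lower, between -0.45 and -0.34. The probes of each of these genes thus gave similar values, but where the probes lie in the transcripts is not known here.

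Mrps27, which encodes a pentatricopeptide repeat protein of the small subunit, had ratios of -1.06, -0.39, -0.49 and -0.33, a mean of -0.57 ± 0.33 (n = 4, limma adjusted p = 0.0140). All 4 arrays were below 0 and replicate 1 was the lowest. Mrpl35 had -0.73, -0.49, -0.55 and -0.66, a mean of -0.61 ± 0.11 (n = 4, limma adjusted p = 0.00215), again low on every array. Its other 2 probes were at -0.14 ± 0.09 and 0.14 ± 0.29 and were not called. Mrpl50 had a wide spread, with -0.09, -0.51, -0.72 and -1.29 and a mean of -0.65 ± 0.50 (n = 4, limma adjusted p = 0.0238), and was not called without replicate 2, 3 or 4. Apart from Mrps25 and Mrpl44, described below, the remaining genes called lower had means from -0.55 for Mrpl39 to -0.28 for Mrpl19.

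Members with known roles beside translation were read next. Mrpl44, a relative of the ribonuclease III enzymes whose loss in human infants causes heart muscle disease, had -0.70, -0.64, -0.71 and -0.41, a mean of -0.62 ± 0.14 (n = 4, limma adjusted p = 0.00242). Its other 2 probes lay at -0.03 ± 0.12 and -0.04 ± 0.08 and were not called. Mrpl45, whose protein holds the ribosome to the inner membrane, was at -0.31 ± 0.13 (n = 4, limma adjusted p = 0.0381) on its strongest probe and at 0.00 ± 0.13 on the other. The fall of both genes was therefore seen by 1 of their probes only, and Mrpl45 was not called without replicate 2, 3 or 4.

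Mrpl12 encodes the protein of the ribosomal stalk, which has also been reported to bind the mitochondrial RNA polymerase. It had -0.88 on replicate 1 and 0.14, 0.08 and 0.06 on the others, and was not called, at -0.15 ± 0.49 (n = 4, limma adjusted p = 0.532). Mrpl58, a peptidyl-tRNA hydrolase that frees stalled ribosomes and is also a ribosomal subunit, had -0.79 on replicate 1 and -0.11, -0.07 and 0.09 on the others. It was not called, at -0.22 ± 0.39 (n = 4, limma adjusted p = 0.280). For both genes replicate 1 lay far below the other arrays, and the 95% intervals were -0.58 to 0.28 and -0.59 to 0.15.

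Mrps6 had the largest rise, on chromosome 16. Its protein is the counterpart of bacterial S6 in the small subunit. Its ratios were 0.54, 0.91, 0.84 and 0.95, a mean of 0.81 ± 0.19 (n = 4, limma adjusted p = 0.00100), or 1.75-fold higher. Every array was above 0, replicate 1 the least. Its second probe gave 0.80 ± 0.20, also called. With median centring its ratio was 0.33 and not called, so the rise depended on the scaling. Slc5a3, a myo-inositol transporter gene that overlaps Mrps6 in the RefSeq table, was lower on both of its probes, at -1.06 ± 0.38 and -0.81 ± 0.47, so probes of this locus moved in opposite directions.

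Mrpl24, Mrps15, Mrpl23 and Mrps21 were the other genes called higher. Mrpl24 had 0.54, 0.59, 0.64 and 0.87, a mean of 0.66 ± 0.15 (n = 4, limma adjusted p = 0.00191). Mrps15 had 0.37, 0.52, 0.67 and 0.69, a mean of 0.56 ± 0.15 (n = 4, limma adjusted p = 0.00379). These 2 genes were above 0 on every array. Mrpl23, whose bacterial counterpart lies at the exit of the peptide tunnel, had -0.09 on replicate 1 and 0.61, 0.83 and 0.76 on the others, a mean of 0.53 ± 0.42 (n = 4, limma adjusted p = 0.0318). Mrps21 had 0.12 on replicate 1 and 0.49, 0.54 and 0.50 on the others, a mean of 0.41 ± 0.20 (n = 4, limma adjusted p = 0.0196). Under median centring all 5 kept a positive ratio, from 0.10 to 0.34, and none was called (adjusted p from 0.0963 to 0.539). With loess, Mrps6, Mrpl24 and Mrps15 were called whichever array was left out, and Mrpl23 and Mrps21 only with all 4 arrays or without replicate 1.

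The genes that were not called ranged from -0.40 for Mrps11 to 0.30 for Mrpl52. Of these 46, 28 had a mean below 0. Their 95% intervals together spanned -0.85, the low end for Mrps11, to 0.61. Changes of that size thus remained possible for some of them, while the ends of most intervals lay nearer to 0. Nearest to the threshold were Mrpl43 (limma adjusted p = 0.0476) and Mrpl37 (limma adjusted p = 0.0495) among the called, and Mrpl52 (limma adjusted p = 0.0551) among the others. Mrps11 missed it because of its spread, with -1.16 on replicate 1 and -0.23, -0.12 and -0.10 on the rest.

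Genes with several probes showed how far a call depended on the probe. Of 27 genes with more than 1 tested probe, 13 had some probes called and others not, 5 had all called in the same direction and 9 had none called. No gene had probes called in opposite directions, and 6 had probe means on either side of 0. The 5 with all probes called were Mrpl18, Mrpl40, Mrpl42 and Mrps2, lower, and Mrps6, higher. By probe, 38 of 114 were called lower and 6 higher, against 23.2% lower and 26.4% higher over all probes tested.

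The largest gap between probes was at Mrps25, a mitochondria-specific small subunit gene. Its strongest probe had ratios of -0.84, -0.60, -0.56 and -0.67, a mean of -0.67 ± 0.13 (n = 4, limma adjusted p = 0.00160), and its other probe had 0.57, 0.22, -0.01 and 0.05, a mean of 0.21 ± 0.26, not called. The first probe was below the second on every array. Mrpl49 went the other way. Its strongest probe was not called, at -0.12 ± 0.31, while its other 2 were lower, at -0.89 ± 0.12 and -0.39 ± 0.07. Mrps17 was similar, with -0.14 ± 0.09 on its strongest probe and -0.56 ± 0.19, called lower, on its other. Of the 78 genes, 20 overlap another protein-coding gene in the RefSeq table, Mrpl18, Mrpl24, Mrpl44, Mrpl49, Mrps18a, Mrps25 and Mrps6 among them, and the part of overlapping transcripts in these probes was not tested.

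**Figure D5:**
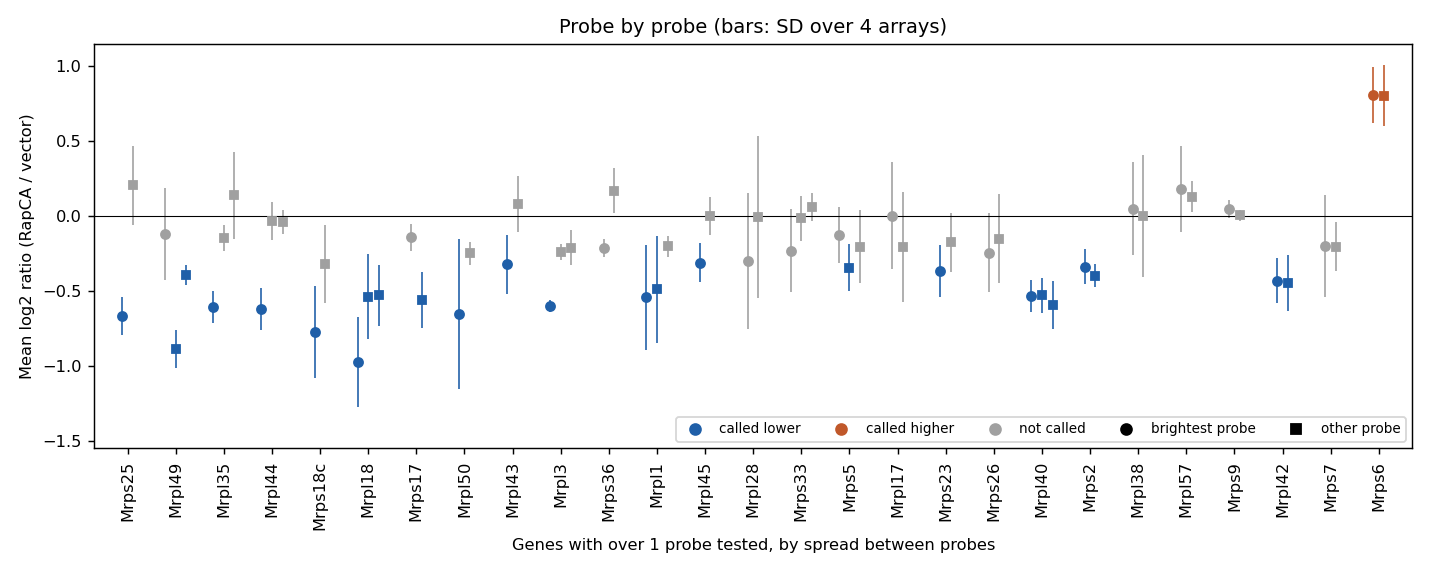
Mean log2 ratio (vertical axis) of every tested probe of the 27 genes with more than 1, with the SD over 4 arrays as bars, circles for the strongest probe and squares for the others, coloured by call and ordered from the widest gap between probes. Mrps25 at the left spans -0.67 to 0.21, and both Mrps6 probes at the right are near 0.80.

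The 5 mitoribosomal subunits that carry other symbols were too few for their shares to be compared with those of all genes. Of these, 2 (40%) were called lower and 0 higher, against 24.9% and 28.9% of all genes. The median ratio of the 5 was -0.23. Gadd45gip1, also known as CRIF1 and a large subunit protein at the tunnel exit, had -1.22, -0.51, -0.57 and -0.34, a mean of -0.66 ± 0.38 (n = 4, limma adjusted p = 0.0106). Ptcd3, a pentatricopeptide repeat protein of the small subunit, had 0.08, -0.57, -0.77 and -1.32, a mean of -0.64 ± 0.58 (n = 4, limma adjusted p = 0.0378). Gadd45gip1 was low on every array and Ptcd3 on all but replicate 1, and Ptcd3 was not called without replicate 2, 3 or 4. Dap3, Chchd1 and Aurkaip1, all of the small subunit, were at -0.23, -0.08 and 0.04 and were not called. With median centring Aurkaip1 (-0.60) and Dap3 (-0.81) were called lower, and Ptcd3 was not called (limma adjusted p = 0.108).

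Smaller shares of the translation factor and ribosome assembly lists were called than of all genes, where 24.9% were lower and 28.9% higher. Of 16 translation factors, 2 (12.5%) were lower and 0 higher, Taco1, a translational activator of the cytochrome oxidase subunit COX1, at -0.56 ± 0.29 and Mss51 at -0.63 ± 0.38. Of 24 genes for ribosome assembly and rRNA modification, 3 (12.5%) were lower and 2 (8.33%) higher. The pseudouridine synthase Trub2, at -0.65 ± 0.06, was lower on every array, and the GTPase Gtpbp10, at -0.91 ± 0.48, and the rRNA methyltransferase Mettl15, at -0.46 ± 0.14, were lower too. The helicase Dhx30, at 0.31 ± 0.07, was higher with loess and was at -0.23 with median centring, not called, and it also lost its call without replicate 2, 3 or 4. Mettl15 and Mss51 were not called without replicate 2 or without replicate 3.

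Of 20 mitochondrial tRNA-charging genes, 6 (30.0%) were lower, near the 24.9% of all genes, and 1 was higher, against 28.9%. The methionyl-tRNA synthetase Mars2 had -1.47, -0.91, -1.01 and -0.99, a mean of -1.10 ± 0.26 (n = 4, limma adjusted p = 0.000449). The 3 genes of the amidotransferase that makes glutaminyl-tRNA were all lower, Gatb at -0.73 ± 0.41, Gatc at -0.55 ± 0.12 and Qrsl1 at -0.38 ± 0.16. Of these 3, Gatb alone was called with median centring. Vars2, at 0.55 ± 0.48, was higher, with -0.12 on replicate 1, and was not called with median centring (limma adjusted p = 0.0832).

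Of 18 genes of mitochondrial transcription and DNA upkeep, 7 (38.9%) were lower and 4 (22.2%) higher, against 24.9% and 28.9% of all genes. Polrmt, the mitochondrial RNA polymerase, was at -0.79 ± 0.32 and Trmt10c, a subunit of mitochondrial RNase P, at -1.23 ± 0.44, both lower. Hsd17b10, another subunit of that enzyme, was higher with loess at 0.54 ± 0.25 and at 0.00 with median centring. Pnpt1 and Supv3l1, which together degrade mitochondrial RNA, were lower at -1.09 ± 0.55 and -0.36 ± 0.16, and neither was called with median centring (limma adjusted p = 0.0669 and 0.137). The named subunits of mitochondrial RNase P thus had opposite signs with loess.

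Of 11 regulators of mitochondrial biogenesis tested, 3 (27.3%) were lower, near the 24.9% of all genes, and 0 were higher. All 11 had a mean below 0 with both scalings. The coactivator Ppargc1b, also known as PGC-1beta, had -0.99, -1.05, -1.09 and -1.04, a mean of -1.04 ± 0.04 (n = 4, limma adjusted p = 0.000168). It was low by nearly the same amount on every array. Ppargc1a was lower at -0.53 ± 0.26 and Myc at -0.37 ± 0.11, both called neither without replicate 2 nor without replicate 3. The genes of the factors whose motif letters were searched above were not called. Nrf1 was at -0.07 ± 0.10, Gabpa at -0.38 ± 0.39, Gabpb1 at -0.14 ± 0.44 and Yy1 at -0.13 ± 0.36.

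Set beside related gene groups, the mitochondrial ribosomal genes lay between the cytosolic ribosomal genes and the respiratory chain. Of 79 cytosolic ribosomal protein genes, 44 (55.7%) were lower and 7 (8.86%) higher, with a median ratio of -0.35. Of 80 nuclear genes for subunits of the respiratory chain and ATP synthase, 10 (12.5%) were lower and 16 (20.0%) higher, with a median of 0.01. Centring on the median turned these to -1.09 and -0.52, against -0.54 for the mitochondrial ribosomal genes, so the distance from the respiratory chain was not kept under that scaling. The groups also differed in brightness, with median log2 spot signals of 12.8 for the mitochondrial ribosomal, 16.6 for the cytosolic ribosomal and 14.9 for the respiratory chain genes. Neither the differences between these groups nor the part of brightness in them was tested.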

How the data were processed

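Per the labels, each of 4 two-colour Agilent arrays held 1 RapCA and 1 vector RNA. All were on 1 slide, which left no batch to compare. Signals were extracted by Agilent Feature Extraction (10.7.3.1 in the file headers, 10.9 in the submitters' processing notes). The intensity values analysed are the deposited median spot and background signals, not normalized, per the file headers. The deposited log10 ratios of Cy5 over Cy3, computed by the scanner software per the file headers, and the authors' series table of log10 ratios served as alternatives, turned to log2 of Cy3 over Cy5. The table matched the scanner ratios to within 5e-05.

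Background was corrected with normexp (offset 50) and ratios with loess (span 0.3) in limma 3.58.1 (R 4.3.3). A probe was tested if 1 channel or both exceeded background clearly on all 4 arrays, with at least 3 arrays after outlier spots were left out. Probes were named by transcript through the RefSeq gene table (64.8% of probes). The deposited files use another build than that table, GRCm38.p6, so its coordinates are given only for its own promoter windows. The mean log2 ratio was tested against 0 with lmFit and eBayes, and p-values were adjusted by Benjamini-Hochberg. Pairing of channels on an array is in the ratio. The scripts were tested on simulated data.

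The members, subunit classes, gene lists, motifs and tests were chosen with earlier results of these data known. Named by rule were Rap1a, the members called with the largest ratios in each direction, and members with known paralogues or other roles. So were subunits with other symbols, most of the smallest-p genes of the lists and some of the genes whose probes disagreed. Of the smallest-p genes, Yars2 (-0.73) and Lars2 (-1.14), both called lower, and Gfm2, Tmem223 and Gabpb2, not called, were left undescribed. Beyond that rule, Slc5a3, Supv3l1, Gatb, Qrsl1, Vars2, the motif factors' genes, single markers, Mrps11, Mrps36, Mrpl14, Mrpl39, Mrpl40, Mrpl42, Mrps2 and the members nearest the threshold were named after their values were seen.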

Additional observations from a re-analysis of the deposited data

Results flagged for a closer look

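Among the genes named in the text, in 11 mitochondrial ribosomal genes and in Ppargc1a, 1 array lay far from the other 3, by a gap that took most of the range over the 4 arrays (Dixon's test). Such a gap comes by chance in about 1 group in 20. In 10 of these 12 the array was replicate 1. It was lower than the rest for Mrpl16 (-1.04 against -0.55 to -0.49), Mrpl12 (-0.88 against 0.06 to 0.14), Mrpl28 (-0.98 against -0.09 to -0.06), Mrpl20 (-0.93 against -0.30 to -0.19), Mrps11 (-1.16 against -0.23 to -0.10), Mrpl37 (-0.86 against -0.25 to -0.21) and Mrpl14 (-0.36 against 0.30 to 0.35). It was higher for Mrpl33 (0.28 against -0.01 to 0.01). For Mrps21 it was nearer to 0 than the rest (0.12 against 0.49 to 0.54), as it was for Ppargc1a (-0.15 against -0.73 to -0.63). For Mrpl3 the array was replicate 3 (-0.66 against -0.59 to -0.57), a difference of under 0.1, and for Mrps36 replicate 4 (-0.13 against -0.25 to -0.24). Over all 78 genes, replicate 1 stood out in this way for 22, replicate 3 for 1, replicate 4 for 2 and no array for 53. The same count over all genes tested is not given here, so this is not shown to be particular to these genes. Limma's array weights gave replicate 1 a weight of 0.14, against 0.68 to 3.93 for the others.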

How the results depend on the processing

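The count of mitochondrial ribosomal genes called higher (5) was 0 with median centring, 3 with the scanner software's ratios, 3 with the series table, 16 with array weights and 3 with no replicate block, where the pairing of channels on arrays was ignored. Leaving out each array in turn gave 3 to 14 called higher and 12 to 31 called lower (27). The count called lower was 20 with no replicate block, with the scanner software's ratios and with the series table. It was 35 with median centring and 37 with array weights. Over all genes tested, array weights gave 4628 lower and 4994 higher, against 3090 and 3582 with the settings used above. None of the 5 genes called higher was called lower under any setting. The number of probes called (11654) was 6546 with median centring and 17694 with array weights. Median centring moved the median ratio to -0.54 for all 78 genes, -0.53 for the large and -0.55 for the small subunit, a scaling in which the median of all genes moved from 0.02 to -0.17. Of the 78 genes, 17 turned from above to below 0 with that centring, none of them called with loess and 1, Mrpl14 (-0.43), called lower with centring. Of the other genes named, Aurkaip1 (-0.60) turned and was called, and Hsd17b10 (-0.0037) and Dhx30 (-0.23) turned and lost their calls. The sign also turned with the probe of lowest spread, added after seeing the data, for Mrpl43 (0.082). The cause of these changes was not tested. Loess with a span of 0.7, also added after seeing the data, gave 25 lower and 4 higher. Over the other alternatives (both background corrections, filters, outlier spots, variance models, probe rules), 22 to 27 were lower and 5 to 6 higher.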
